A study of Rattus norvegicus with 11 samples.

Results

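The genes described here are 8 members of the Akt, FoxO and muscle atrophy pathway in rat soleus: the kinases Akt1 and Akt2, the transcription factors Foxo1 and Foxo3, the ubiquitin ligases Fbxo32 and Trim63, and the growth kinases Mtor and Rps6kb1. They were chosen by symbol, and all 8 were among the 16810 rows of the count table and among the 10814 genes with enough counts to test. The animals were male Sprague Dawley offspring aged 12 months, 6 from dams on a normal fat diet (control animals 1 to 6) and 5 from dams on a diet high in sucrose and in mostly saturated fat (high-fat animals 1 to 5), each from a different litter. The dams' high-fat diet held 23.3% or 23.5% fat, depending on which of the submitters' texts is read, and 20% sucrose, against 6% or 7% fat and 10% sucrose in the control diet. Dams ate it for 3 weeks before mating, during pregnancy and during lactation. The offspring of both groups were weaned at day 21 onto the same standard chow, so the groups differ by what the mother ate, and all were fasted for 1 to 2 hours before the muscle was taken.

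Akt is the kinase that insulin and growth factors switch on through phosphoinositide signalling. It phosphorylates FoxO proteins, which then leave the nucleus, and it also favours the activity of the mTOR kinase, which drives protein synthesis through the S6 kinase encoded by Rps6kb1. When Akt signalling is low, nuclear FoxO proteins switch on genes of protein breakdown, among them Fbxo32, which encodes the ligase known as atrogin or MAFbx, and Trim63, which encodes the ligase MuRF1. Much of this control acts on phosphorylation and location of the proteins, which poly(A) RNA sequencing does not measure, and the values below are levels of mRNA.

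The ligase gene Trim63 is a textbook case of a promoter that can bind both FoxO proteins and the glucocorticoid receptor, so its sequence is shown before the values. The stretch below is the 223 bases upstream of every annotated start of the gene, at chr5:151816986-151817208 on the forward strand of RefSeq's GRCr8 assembly. The first run of capitals marks GAACA and TGTTC with 3 bases between them, the arms of a steroid hormone receptor element. The second run marks TGTTTAC, which is the FoxO core motif GTAAACA read on the other strand.
Trim63: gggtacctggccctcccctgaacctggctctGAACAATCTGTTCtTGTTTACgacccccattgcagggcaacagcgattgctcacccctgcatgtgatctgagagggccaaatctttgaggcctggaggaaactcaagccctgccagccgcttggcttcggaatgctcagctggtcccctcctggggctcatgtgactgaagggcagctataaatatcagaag
The hormone receptor arms lie at positions -219 to -207 and the FoxO core at -205 to -199, counted from the start site on which the promoter window was built, and the motifs do not overlap. GTAAACA, searched on both strands in windows of 250 bases before and 50 after a start, is present in 1265 of 33469 RefSeq promoter windows (3.78%), and the pair of hormone receptor arms in 17 (0.0508%). Of the 6 member genes with a window, Akt1, Akt2, Foxo1, Trim63, Mtor and Rps6kb1, only Trim63 held either motif.

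GTAAACA was also looked for around other genes of the pathway. It was in 1 of 26 windows of a list of FoxO target genes (Bcl2l11, a pro-apoptotic protein). Among Akt regulators it was in 3 of 15 windows, and among mTOR complex genes and their inputs in 3 of 23, with Mapkap1 counted in both. It was in 1 of 19 windows of FoxO partners and regulators (Mdm2, a ligase of p53), in 0 of 24 windows of other muscle ubiquitin ligases and enzymes, and in 0 of 14 windows of S6 kinase and translation genes. The sites that lie upstream of all annotated starts are lined up here with the core in capitals, turned where needed so that it reads GTAAACA, with 15 bases on either side where the window holds them.
Trim63: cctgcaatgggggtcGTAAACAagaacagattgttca
Bcl2l11: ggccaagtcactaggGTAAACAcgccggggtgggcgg
Akt1s1: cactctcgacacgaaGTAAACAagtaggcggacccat
Mapkap1: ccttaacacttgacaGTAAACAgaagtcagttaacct
Phlpp1: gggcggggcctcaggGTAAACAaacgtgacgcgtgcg
Trib2: tcggccaggcgcgagGTAAACAgtgc
A match is a description of letters and does not show that a factor binds there.

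The libraries held 10156225 to 15362013 counts. Levels are given as CPM, a gene's counts as a share of the library on a fixed scale, adjusted by the TMM method, which corrects for a few abundant genes taking different shares of a library. CPM is not divided by gene length, so it is compared between animals and not between genes. The summed level of 9 slow-fibre genes, which soleus is known for, was 72153 to 102909 CPM over the 11 animals. With no other tissue beside it, this sum does not test the tissue label. The sum of 12 fast-fibre genes ranged more widely between animals, from 11204 to 48100 CPM. With edgeR's quasi-likelihood test, 0 of 10814 genes (0%) passed an adjusted p of 0.05 between the maternal diets, the lowest being 0.471. Before adjustment, 523 genes (4.84%) were under 0.05, of which 373 (3.45% of all genes) were higher after the maternal high-fat diet. The number of genes called was 7 with DESeq2, 8 with the likelihood ratio test in edgeR and 0 with limma voom.

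None of the 8 genes passed the test for maternal diet, and in each of them the groups overlapped, as they did in all but 0.37% of genes. The log2 fold changes were above 0 in 5 of the 8 and their median was 0.06, against 50.9% of all genes and a median of 0.0039. The FoxO genes had the largest differences of the 8, near 1.5-fold, and they were also among the 3 genes that varied most between animals. At an unadjusted p under 0.05, 2 of 8 genes were higher after the maternal high-fat diet, Foxo1 and Foxo3, where 3.45% of all genes were, and 0 were lower.

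**Figure D1:**
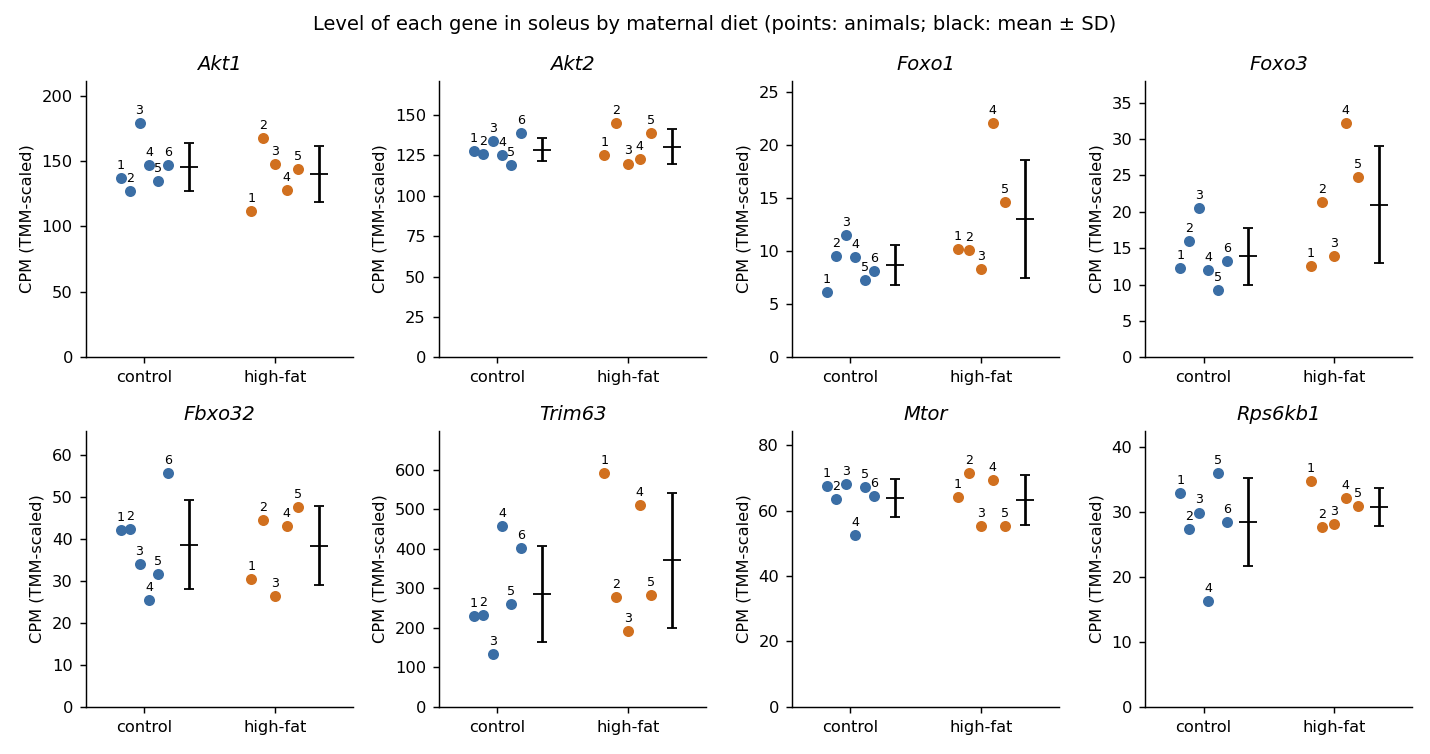
Level of each of the 8 genes in CPM on the vertical axis, by maternal diet on the horizontal axis. Points are animals with their numbers, and black bars are the group mean ± SD. High-fat animal 4 is the top point for Foxo1 (22.1 CPM) and Foxo3 (32.2 CPM), control animal 4 is the lowest for Mtor (52.5 CPM) and Rps6kb1 (16.3 CPM), and the groups overlap in all 8 panels.

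Foxo1 encodes the FoxO factor best known in muscle for the response to fasting. Its level was 6.12, 9.60, 11.5, 9.49, 7.33 and 8.14 CPM in control animals 1 to 6, and 10.2, 10.1, 8.29, 22.1 and 14.7 CPM in high-fat animals 1 to 5. High-fat animals 4 and 5 stood above all the controls, at 2.54 and 1.70 times the control mean, and the other 3 lay within the control range. The means were 8.70 ± 1.91 CPM (SD, n = 6) and 13.1 ± 5.58 CPM (SD, n = 5). The log2 fold change was 0.60 ± 0.25 (SE) with an edgeR adjusted p of 0.974. The exact permutation test over all 462 assignments of animals gave a two-sided p of 0.0823. Leaving out high-fat animal 4 gave a log2 fold change of 0.32, and leaving out animal 5 as well, a choice made after seeing the data, gave 0.13.

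Foxo3 encodes the FoxO factor tied most closely to the atrophy ligases. In control animals 1 to 6 it was at 12.3, 16.0, 20.5, 12.0, 9.18 and 13.2 CPM, and in high-fat animals 1 to 5 at 12.6, 21.4, 13.9, 32.2 and 24.8 CPM. High-fat animals 2, 4 and 5 exceeded every control, control animal 3 came close to them, and high-fat animals 1 and 3 sat in the middle of the controls. The means were 13.9 ± 3.90 CPM (SD, n = 6) and 21.0 ± 8.09 CPM (SD, n = 5). The log2 fold change was 0.60 ± 0.25 (SE), with an edgeR adjusted p of 0.974 and an exact permutation p of 0.0844 (two-sided). Leaving out high-fat animal 4 gave 0.39, and leaving out both animal 4 and animal 5 gave 0.20.

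High-fat animal 4 also stood apart in other genes, and the part of these in its FoxO levels was not tested. The summed level of a list of acute inflammation and neutrophil genes was 985.5 CPM in that animal, 276 to 333 CPM in the controls and 288 to 422 CPM in the other high-fat animals. Socs3, an inhibitor of cytokine signalling on that list, was at 90.4 CPM there and at 1.22 to 6.48 CPM in the other 10 animals. All 13 tested genes of the list had a higher mean after the maternal high-fat diet, where 50.9% of all genes did, with a median log2 fold change of 0.76. With that animal left out, 11 of 13 had a higher mean and the median was 0.42. On that list, the chemokine gene Cxcl1 had no count in control animals 1 and 4. In high-fat animal 5 this list was at 344 CPM, while a list of macrophage genes, of which Marco had no count in 10 of 11 animals, was at 1806 CPM. The macrophage sum was 1108 CPM in high-fat animal 4, 352 to 1031 CPM in the controls and 294 to 1092 CPM in high-fat animals 1 to 3. In whole muscle, more cells of a type and more RNA per cell cannot be told apart.

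The kinases upstream of FoxO varied little between animals. Akt2, the isoform needed for insulin-stimulated glucose uptake in muscle, was at 128, 126, 134, 125, 119 and 139 CPM in the controls and at 125, 145, 120, 123 and 139 CPM in high-fat animals 1 to 5. These levels spanned 1.22-fold from the lowest animal to the highest, and the coefficient of variation (SD over mean, all animals) was 6.57%, the lowest of the 8 genes. The log2 fold change of Akt2 was 0.02 ± 0.08 (SE). Akt1, the broadly expressed isoform, was at 127 to 179 CPM in controls and at 112 to 168 CPM in high-fat animals. Its log2 fold change was -0.05 ± 0.12 (SE), and its lowest animal was high-fat animal 1. The exact permutation p was 0.639 for Akt1 and 0.734 for Akt2.

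Trim63, whose product MuRF1 tags myofibrillar proteins for breakdown, varied more than any other of the 8 genes, with a coefficient of variation of 44.7%. Its level was 229, 232, 133, 457, 261 and 403 CPM in control animals 1 to 6 and 592, 278, 192, 511 and 282 CPM in high-fat animals 1 to 5. High-fat animals 1 and 4 were above every control, but control animals 4 and 6 were above the other 3 high-fat animals. The means were 286 ± 121 CPM (SD, n = 6) and 371 ± 171 CPM (SD, n = 5), with a log2 fold change of 0.38 ± 0.33 (SE) and an exact permutation p of 0.379. Leaving out high-fat animal 1 gave a log2 fold change of 0.14, and leaving out control animal 3 or high-fat animal 4 gave 0.23.

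Fbxo32, the other atrophy ligase, is also a marker of fasting, denervation and disuse in muscle. It was at 42.2, 42.5, 34.1, 25.5, 31.8 and 55.8 CPM in control animals 1 to 6 and at 30.4, 44.5, 26.4, 43.2 and 47.6 CPM in high-fat animals 1 to 5. Every high-fat animal lay inside the control range. The means were 38.7 ± 10.6 CPM (SD, n = 6) and 38.4 ± 9.40 CPM (SD, n = 5). The log2 fold change was -0.0096 ± 0.20 (SE), and the exact permutation p was 0.994. The ligases had no detectable relation to each other over the 11 animals (r = 0.05, permutation p = 0.888). The ratio of Trim63 to Fbxo32 CPM ran from 3.89 in control animal 3 to 17.9 in control animal 4 and 19.5 in high-fat animal 1.

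The growth arm showed no difference beyond its spread. Mtor, the kinase that senses nutrients and growth factors, was at 67.4, 63.4, 68.0, 52.5, 67.2 and 64.4 CPM in controls and at 64.2, 71.5, 55.4, 69.3 and 55.2 CPM in high-fat animals 1 to 5, with a log2 fold change of -0.02 ± 0.10 (SE). Rps6kb1, the S6 kinase that mTOR activates, was at 32.9, 27.4, 29.9, 16.3, 36.0 and 28.4 CPM in controls and at 34.7, 27.6, 28.1, 32.2 and 30.9 CPM in high-fat animals. Control animal 4 was the lowest animal for both genes. The log2 fold change of Rps6kb1 was 0.11 ± 0.16 (SE), and the exact permutation p was 0.602, against 0.859 for Mtor.

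The next question was whether the FoxO genes and their ligase targets varied together over the 11 animals. Pearson's r and Spearman's rho of log2 CPM were tested with 100000 random pairings of animals (two-sided), and p-values were adjusted over 140 relations: the 28 pairs of the 8 genes and each gene with insulin, 3 other body measures and 10 marker lists. Foxo1 and Foxo3 varied together, with r = 0.87 (permutation p = 0.00023, adjusted p = 0.0322) and rho = 0.80 (permutation p = 0.00472, adjusted p = 0.330), and this was the only relation of the 140 to pass by r, with 0 passing by rho. At an unadjusted p under 0.05 for r there were 11. The animals lowest for Foxo1, control animals 1 and 5, were among the 4 lowest for Foxo3, and high-fat animals 4 and 5 were the highest for both.

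The FoxO pair kept its direction in every subset tried, and the adjusted p did not hold. Without the 2 animals farthest from the Foxo1 median (high-fat animal 4 and control animal 1), r was 0.84, and after subtraction of the group means it was 0.82. Within the 6 controls it was 0.73 (exact permutation p = 0.103). When animals were left out in turn, r ran from 0.79 without high-fat animal 4 to 0.90, and the adjusted p stayed under 0.05 in 2 of the 11 cases, those without control animal 1 and without high-fat animal 1. Among 10813 other tested genes, Foxo3 ranked 11 by its r with Foxo1, and Foxo1 ranked 18 by its r with Foxo3, which is a description across genes. Without high-fat animal 4 these ranks were 60 and 104.

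Neither FoxO gene was detectably related to either ligase. The highest of the 4 values was that of Foxo3 with Fbxo32, r = 0.45 (permutation p = 0.169) and rho = 0.59 (permutation p = 0.0615), with an adjusted p of 0.947 for r. It was 0.30 without high-fat animals 4 and 5, which are the 2 farthest from the Foxo3 median, and 0.19 within the controls. Foxo1 with Fbxo32 gave r = 0.21 (permutation p = 0.552), and control animal 6 combined the highest Fbxo32 level with a Foxo1 level below the control mean.

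For Trim63, whose promoter carries the FoxO core printed above, neither relation passed. Foxo1 with Trim63 gave r = 0.30 (permutation p = 0.369) and rho = 0.34 (permutation p = 0.311), and r was 0.0081 without high-fat animal 4. Foxo3 with Trim63 gave r = -0.0044 (permutation p = 0.990), and -0.35 without that animal. High-fat animal 1 and control animal 4, which were 2 of the 3 highest for Trim63, had Foxo3 levels below the control mean, while control animal 3 had the lowest Trim63 and the highest Foxo3 of the controls. Among all tested genes, 77.9% had a lower r with Foxo1 than Trim63 did, and 48.6% a lower r with Foxo3. Fbxo32 and Trim63 themselves gave r = 0.05 (permutation p = 0.888).

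**Figure D2:**
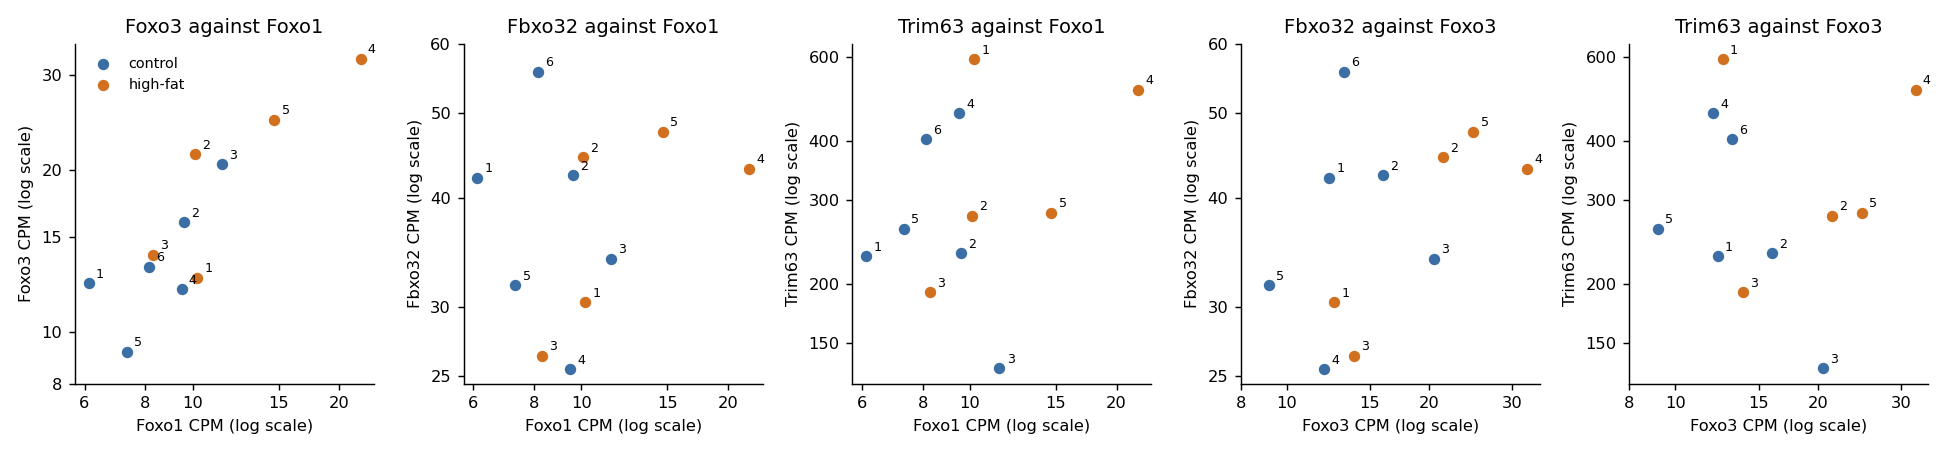
CPM of Foxo3 against Foxo1, and of Fbxo32 and Trim63 against each FoxO gene, on log axes. Points are animals with their numbers, blue for control and orange for high-fat. The FoxO genes lie along a line (r = 0.87), and the 4 panels with a ligase show values of r from -0.0044 to 0.45.

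Other pairs among the 8 genes had an unadjusted p under 0.05 and did not pass the adjustment. Akt2 with Fbxo32 gave r = 0.66 (permutation p = 0.0287, adjusted p = 0.625) and rho = 0.69, with 0.53 after leaving out the 2 animals farthest from the Akt2 median. Mtor with Rps6kb1 gave r = 0.60 (permutation p = 0.0405), but 0.19 without control animal 4, so the relation rests on that animal. Within the 6 controls, which include it, r was 0.97 (exact permutation p = 0.0153). Akt1 with Trim63 gave r = -0.62 (permutation p = 0.0395), and -0.07 without high-fat animal 1 and control animal 3, on which it rests.

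**Figure D3:**
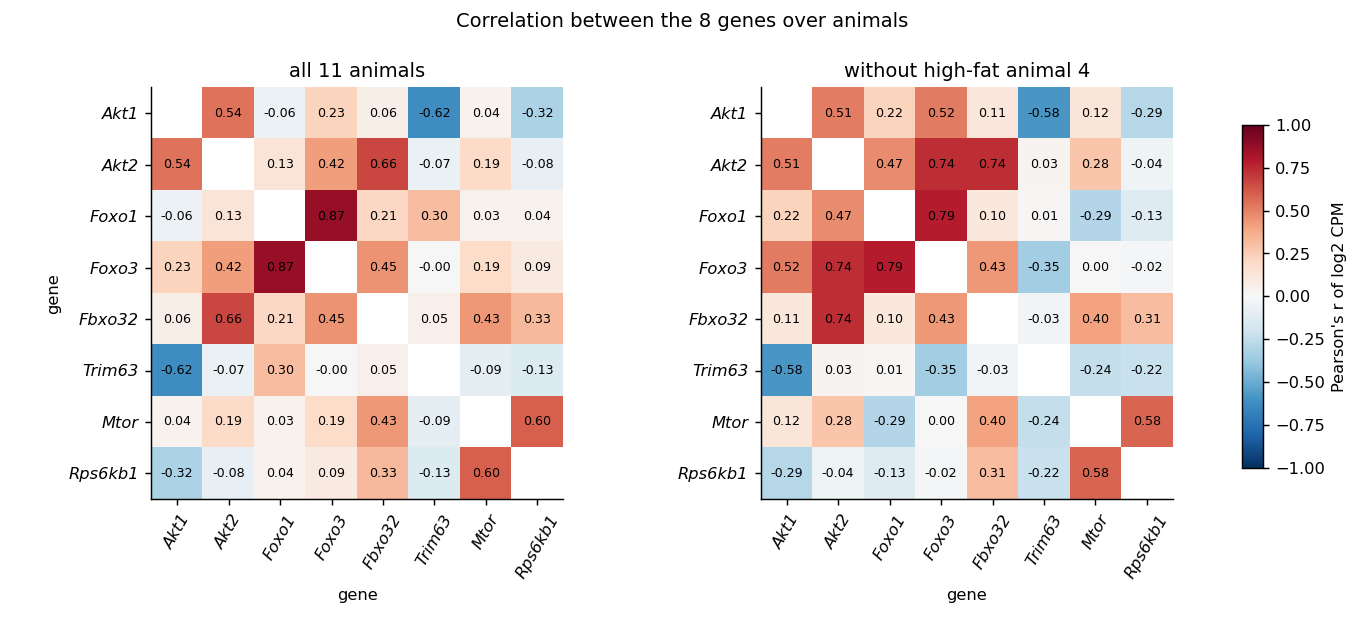
Pearson's r of log2 CPM for each pair of the 8 genes, over all 11 animals (left) and without high-fat animal 4 (right), with genes on both axes and r as colour and number. The Foxo1 and Foxo3 cell is 0.87 and 0.79, and the Foxo1 and Trim63 cell 0.30 and 0.0081.

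Relation to plasma insulin was examined in the 10 animals with a value. Insulin was 1.61 ± 0.252 ng/ml (SD, n = 6) in controls and 2.27 ± 0.493 ng/ml (SD, n = 4) in high-fat animals 1 to 4. The values of high-fat animals 1, 3 and 4 (2.294, 2.566 and 2.652 ng/ml) were above all controls (1.357 to 2.076 ng/ml), so insulin and maternal diet are partly the same contrast. High-fat animal 2, at 1.566 ng/ml, lay among the controls.

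None of the 8 genes had a relation to insulin that passed, and 0 of the 8 had an unadjusted permutation p under 0.05. Foxo1 had the highest value, r = 0.57 (permutation p = 0.0748, adjusted p = 0.735) and rho = 0.45 (permutation p = 0.189). Its r was 0.20 without high-fat animal 4, the animal with the highest insulin and the highest Foxo1, and 0.76 without high-fat animal 3, which had nearly as much insulin and 8.29 CPM of Foxo1. Without both, which are the 2 animals farthest from the insulin median, r was 0.40, and within the 6 controls it was 0.36 (exact permutation p = 0.50). Foxo3 gave r = 0.36 (permutation p = 0.303), and -0.079 without high-fat animal 4.

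The Akt genes ran the other way. Akt1 gave r = -0.52 (permutation p = 0.127) and Akt2 r = -0.51 (permutation p = 0.135), both with the same sign after subtraction of the group means (-0.56 and -0.70). Akt1 was lowest in high-fat animal 1 (112 CPM) and highest in control animal 3 (179 CPM), which had the second lowest insulin. The ligases gave r = 0.35 for Trim63 (permutation p = 0.311) and -0.23 for Fbxo32 (permutation p = 0.509). Mtor gave r = -0.24 and Rps6kb1 r = 0.12. Within the 6 controls the rho of Mtor with insulin was -0.89 (exact permutation p = 0.0333, not adjusted), where its r was -0.35.

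In the edgeR fit of a slope on insulin over all genes, 0 of 10820 genes (0%) had an adjusted p under 0.05, and 377 (3.48%) had an unadjusted p under 0.05. The slope of Foxo1 was 0.68 ± 0.26 (SE) log2 units per ng/ml, and it was the 1 gene of the 8 under that unadjusted threshold, with an adjusted p of 1.00. The slope was 0.56 ± 0.39 (SE) with maternal diet as a covariate, and 0.10 without high-fat animal 4. The slope of Foxo3 was 0.45 ± 0.29 (SE), and 0.14 ± 0.41 (SE) with maternal diet in the fit. Trim63 had a slope of 0.58 ± 0.39 (SE) and Akt1 one of -0.21 ± 0.13 (SE).

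**Figure D4:**
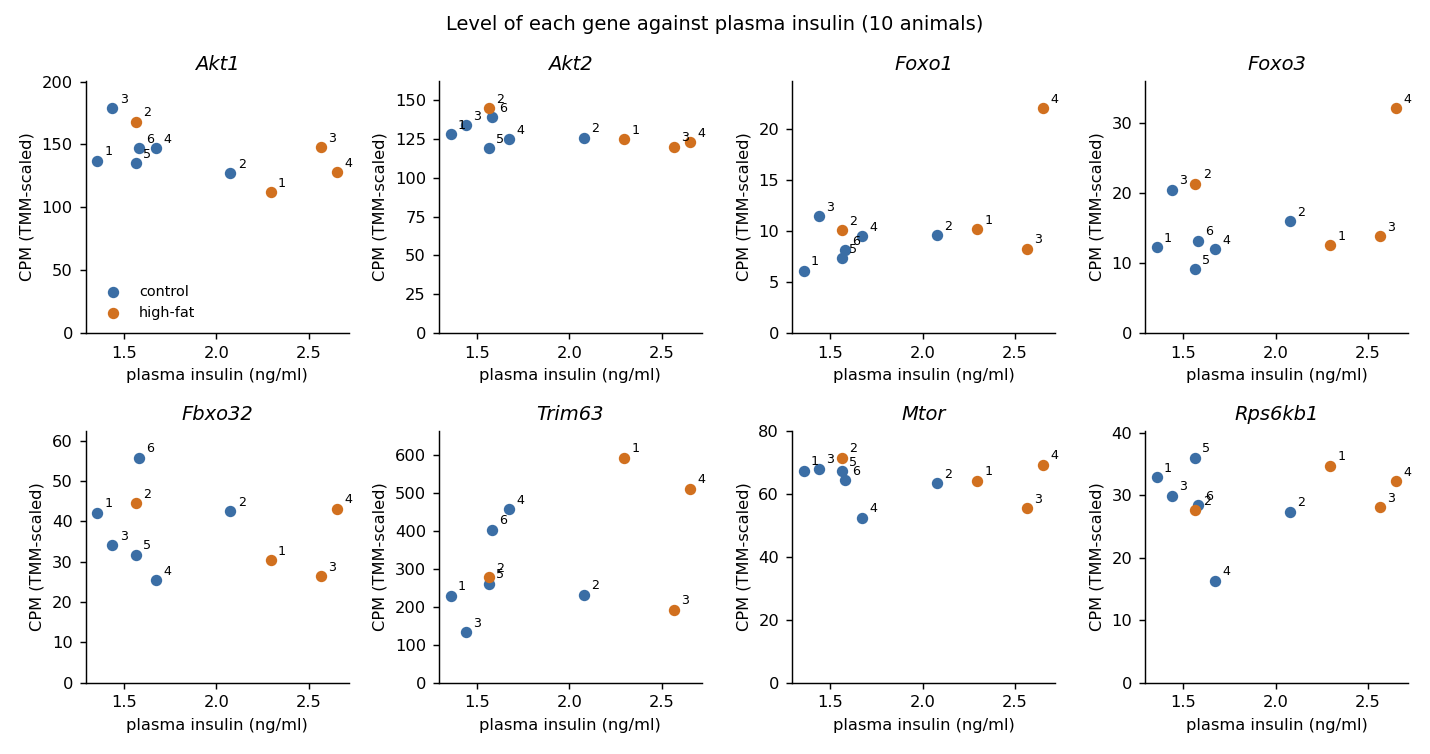
CPM of each gene on the vertical axis against plasma insulin in ng/ml on the horizontal axis, for the 10 animals with an insulin value. Points are animals with their numbers, blue for control and orange for high-fat. In the Foxo1 panel high-fat animal 4 (22.1 CPM at 2.652 ng/ml) stands far above high-fat animal 3 (8.29 CPM at 2.566 ng/ml).

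The insulin resistance index HOMA-IR, the product of glucose and insulin on a fixed scale, gave r = 0.78 with Foxo1 (permutation p = 0.0475) and 0.66 with Foxo3 (permutation p = 0.0491), with adjusted p-values of 0.625. Both rest on high-fat animal 4, whose index was 32.1 against 9.28 to 18.7 in the other 9 animals: without it r was 0.051 and 0.038. Control animals 1, 2 and 3 have the same glucose value, 6.36 mmol, in the labels.

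Trim63 was the gene of the 8 with the highest r with adiposity. Its r with total dissected fat as a percent of body weight was 0.74 (permutation p = 0.00597, adjusted p = 0.279) and rho was 0.62 (permutation p = 0.0488). High-fat animal 1, the highest for Trim63, was also the fattest, at 16.3% of body weight, and control animal 3, the lowest for Trim63, was the leanest, at 3.74%. Without the 2 farthest animals, high-fat animals 1 and 4, r was 0.50, and within the 6 controls it was 0.89 (exact permutation p = 0.0278). Akt1 gave r = -0.62 with the same measure (permutation p = 0.046), and -0.03 without those 2 animals. It was -0.28 without high-fat animal 1 alone and -0.59 without high-fat animal 4 alone.

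With the summed level of 11 glucocorticoid-responsive genes, Trim63 gave r = 0.68 (permutation p = 0.0237, adjusted p = 0.625) and rho = 0.59 (permutation p = 0.0614). Within the 6 controls r was 0.86 (exact permutation p = 0.0347), and it was 0.51 over all animals without control animal 3, which had the lowest sum, 548 CPM. Any part of the hormone or of the promoter match in the level of Trim63 was not tested. In the same 6 controls Trim63 gave r = 0.94 with the summed fast-fibre genes (exact permutation p = 0.00694), against 0.37 over all animals. Control animals 4 and 6, high for Trim63, had fast-fibre sums of 48100 and 42615 CPM, and control animal 3 had 11204 CPM. Body weight gave r = 0.89 with Trim63 in the 6 controls (exact permutation p = 0.0292). The summed slow-fibre genes gave 0.80 (exact permutation p = 0.0528), and the fibroblast and matrix genes -0.79 (exact permutation p = 0.0611). Body weight, total fat, the fast-fibre, slow-fibre and matrix sums and the glucocorticoid list thus moved with Trim63 in the same 6 animals and cannot be told apart there.

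Foxo1 gave r = 0.83 with the acute inflammation and neutrophil list (permutation p = 0.00425, adjusted p = 0.279) and rho = 0.84 (permutation p = 0.00239, adjusted p = 0.330). Within the 6 controls, whose sums spanned only 276 to 333 CPM, r was 0.85 (exact permutation p = 0.0333). These control sums were mostly Stat3 (131 to 151 CPM), Cebpb (53.2 to 100 CPM) and Serpina3n (14.8 to 70.7 CPM). The neutrophil genes S100a8 and S100a9 were at 0.548 to 2.97 and 0.898 to 4.95 CPM in controls, so they added little to them. Over all animals but high-fat animal 4, r of Foxo1 with the list was 0.57 (permutation p = 0.0909, adjusted p = 0.979). The rho in those animals was 0.78. Without high-fat animals 4 and 1, the 2 farthest from the median sum, r was 0.81 (exact permutation p = 0.00674, adjusted p = 0.472). Without high-fat animal 1 it was 0.84, with an adjusted permutation p of 0.0203. Of the 11 cases with an animal left out, that was the 1 with an adjusted p under 0.05. For Foxo3 the r with the list was 0.62 (permutation p = 0.0331), and 0.14 without high-fat animal 4.

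The genes most like each FoxO gene and ligase were found by r of log2 CPM over the 11 animals, and are given as a description. For Foxo1 they were Cblb, Il1rn, Zfand2a, Pak2 and Nt5dc3, with r from 0.91 to 0.93. Cblb encodes a ubiquitin ligase that targets insulin signalling in unloaded muscle, and Il1rn encodes the interleukin receptor antagonist, which was at 11.8 CPM in high-fat animal 4 and at 0.245 to 2.39 CPM in the others. For Foxo3 they were Btrc, a ubiquitin ligase subunit, Gtpbp1, Hivep2, Eif4ebp2, a translation repressor under mTOR control, and Pcyt1a, with r from 0.93 to 0.96. For Fbxo32 they were RGD1311863, Atm, the DNA damage kinase, Calr3, Slc11a2 and Xrcc4, with r from 0.86 to 0.91. For Trim63 they were Bag1, a chaperone regulator, Tnip2, Rab3ip, Npap60 and Churc1, with r from 0.86 to 0.89. No gene was in more than 1 of these 4 groups.

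Beyond the ligases, 29 of 30 listed FoxO target genes could be tested. None passed the test for maternal diet, 20 had a higher mean after the maternal high-fat diet and 9 a lower one, where 50.9% of all genes were higher, and the median log2 fold change was 0.07. At an unadjusted p under 0.05, 5 were higher, where 3.45% of all genes were, and 0 lower. Without high-fat animal 4, 19 were higher with a median of 0.02, and 3 were higher at that unadjusted p. The animals of a group were unlike each other: 22, 16, 11, 21 and 11 of the 29 genes were above the control mean in high-fat animals 1 to 5, and 7 to 22 of them in single controls. Over all tested genes, 49.5% to 53.5% were above the control mean in single animals. Gadd45a, a stress gene that rises in denervated muscle, was at 45.7, 19.0, 30.5, 31.7, 36.3 and 28.5 CPM in controls and at 105, 47.1, 46.1, 141 and 130 CPM in high-fat animals 1 to 5. Its groups did not overlap, though high-fat animals 2 and 3 exceeded control animal 1 by little, and the log2 fold change was 1.55 ± 0.31 (SE) with an adjusted p of 0.471. Cdkn1a, a cell cycle inhibitor, was at 73.3 ± 18.6 CPM (SD, n = 6) in controls and 152 ± 111 CPM (SD, n = 5) in high-fat animals, and only high-fat animals 1, 4 and 5 were above the controls.

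Fbxo30 and Fbxo31, both ubiquitin ligase subunits, were the other listed target genes named by rule. Fbxo30, known to be needed for full muscle loss after denervation, was at 17.4 ± 4.31 CPM (SD, n = 6) and 26.2 ± 8.37 CPM (SD, n = 5), with a log2 fold change of 0.59 ± 0.22 (SE). Fbxo31 was at 6.30 ± 1.28 CPM (SD, n = 6) and 8.82 ± 2.99 CPM (SD, n = 5), with a log2 fold change of 0.49 ± 0.22 (SE). Of the 29 targets it had the highest r with both FoxO genes, 0.87 with Foxo3 and 0.77 with Foxo1, and the values without high-fat animal 4 were 0.77 and 0.50.

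Over the target list the median r with Foxo1 was 0.23, against -0.0018 over all tested genes. A positive r was found for 19 of 29 on the list and for 5381 of 10813 over all tested genes. With Foxo3 the median was 0.13, against 0.011. Without high-fat animal 4 the medians over the list were 0.0015 and -0.12. Pdk4, the kinase that shuts off pyruvate oxidation in fasting, shows the change: its r with Foxo1 was 0.47 with that animal, where Pdk4 was at 446 CPM, and -0.14 without it. Sesn1, a stress-induced inhibitor of mTOR signalling, gave 0.65 with Foxo1 and 0.67 with Foxo3, and 0.32 and 0.45 without that animal. Cited2, a transcriptional coregulator, ran against both, at -0.81 and -0.71, and at -0.47 and -0.50 without it.

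**Figure D5:**
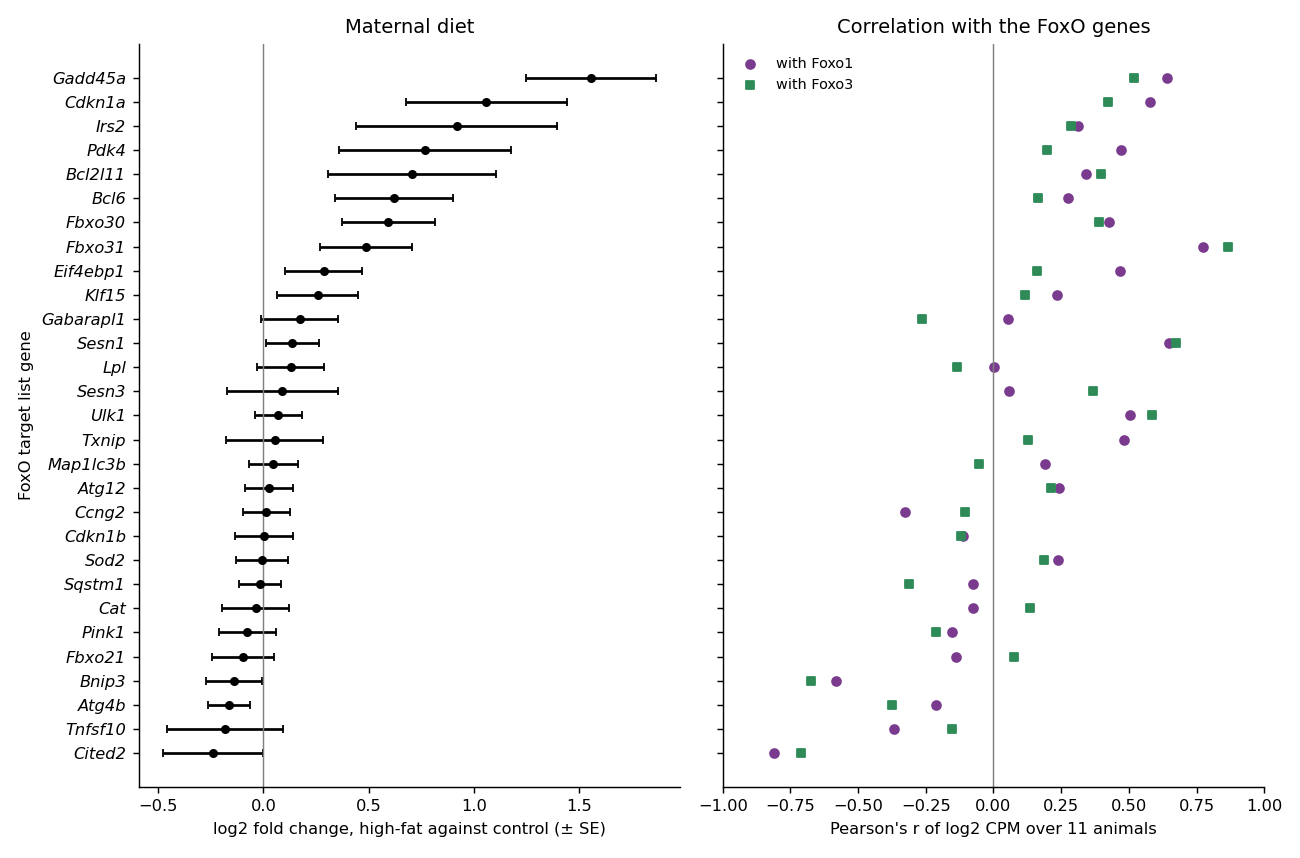
The 29 tested genes of the FoxO target list on the vertical axis, ordered by fold change. Left, log2 fold change after maternal high-fat diet ± SE on the horizontal axis. Right, Pearson's r with Foxo1 (circles) and Foxo3 (squares) over 11 animals. Gadd45a has the largest fold change (1.55), and r runs from -0.81 for Cited2 with Foxo1 to 0.87 for Fbxo31 with Foxo3.

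Regulators around the 8 genes were read from lists, and 0 genes of any list passed the test. The shares over all tested genes, to be set beside the counts of each list that follows, were 50.9% higher and 4.84% at an unadjusted p under 0.05. Genes both higher and under that p made up 3.45%. Of 16 tested Akt regulators, 8 were higher and 8 lower, with 2 higher and 0 lower at an unadjusted p under 0.05. Trib1, a pseudokinase of a family that binds Akt, had a log2 fold change of 0.46 ± 0.19 (SE), the tyrosine phosphatase gene Ptpn1 0.30 ± 0.18 (SE), and the phosphoinositide phosphatase gene Inpp5k 0.15 ± 0.09 (SE).

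Of 15 tested FoxO partners and regulators, 10 were higher and 5 lower, with 1 each way at an unadjusted p under 0.05. Foxo4, the third FoxO gene of muscle, had the lower mean after the maternal high-fat diet, 118 ± 18.2 CPM (SD, n = 5) against 141 ± 14.2 CPM (SD, n = 6), with a log2 fold change of -0.25 ± 0.11 (SE) and an exact permutation p of 0.0433. It was lowest in high-fat animal 4, at 97.4 CPM, the animal highest for Foxo1 and Foxo3. Ywhaz, an adaptor of the family that holds phosphorylated FoxO in the cytoplasm, was at 144 ± 11.3 CPM (SD, n = 5) against 124 ± 12.5 CPM (SD, n = 6). Its log2 fold change was 0.22 ± 0.10 (SE), with an exact permutation p of 0.00866. The related gene Ywhab had a log2 fold change of 0.20 ± 0.10 (SE), and the acetyltransferase gene Crebbp one of -0.22 ± 0.15 (SE). The edgeR adjusted p was 0.974 for both Foxo4 and Ywhaz. Both were named for a small diet p in these same animals, so their permutation p-values are not separate support.

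Of 25 tested genes of other muscle ubiquitin ligases and enzymes, 13 were higher and 12 lower, and the 2 higher at an unadjusted p under 0.05 were Fbxo30 and Fbxo31. Nedd4, a ligase of membrane proteins, had a log2 fold change of 0.20 ± 0.11 (SE), and Fbxl22 one of -0.45 ± 0.21 (SE). Of 24 tested genes of the mTOR complexes and their inputs, 8 were higher and 16 lower (median log2 fold change -0.07), and 1 gene, lower, had an unadjusted p under 0.05. That gene was Ddit4l, an inhibitor of mTOR signalling, at 276 ± 68.8 CPM (SD, n = 6) in controls and 200 ± 47.4 CPM (SD, n = 5) in high-fat animals. Ddit4l too was named for its small diet p, and it had an edgeR adjusted p of 0.974 and an exact permutation p of 0.0931. Lamtor3 and Mlst8 each had a log2 fold change of -0.14, with SE of 0.09 and 0.10, and Depdc5 one of 0.16 ± 0.12 (SE). Of 14 tested S6 kinase and translation genes, 11 were higher and 3 lower with 0 at an unadjusted p under 0.05. The named ones were Eif4ebp1 (0.29 ± 0.18, SE), Eif4ebp2 (0.18 ± 0.13, SE), Pdcd4 (0.12 ± 0.10, SE) and Eif4a1 (0.12 ± 0.11, SE), all log2 fold changes.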

How the data were processed

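Poly(A) RNA of soleus from 11 animals was sequenced for 36 cycles. The deposited values are whole-number read counts per gene; the submitters' processing notes name FastQC, BWA, HTSeq and edgeR, while build, annotation and strand setting are not given in the sources used. The kit named in the labels' protocols does not mark strand, so antisense reads are not separated. Libraries differed by at least 21.2 times the variance of sampling noise in all 55 pairs, so none was a copy. The replicates are animals of separate litters.

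The members and gene lists were chosen with earlier results of these data known. Genes were filtered with filterByExpr, scaled with TMM and tested with edgeR 4.0.16 (quasi-likelihood, R 4.3.3) over all 10814 genes with Benjamini-Hochberg adjustment. The method was also run on simulated counts with 200 changed genes. It recovered 23.9% of those changed 1.5-fold, 76.1% of those changed 2-fold and 95.5% of those changed 4-fold, and called 7 unchanged genes. A difference near 1.5-fold would thus mostly be missed. The floor of 3 counts is 0.195 to 0.295 CPM, far below the members, whose counts were 75 to 8016, and it covers counting error only. Relations used log2 CPM with a prior count of 2, NumPy 2.4.6 and random pairings, or exact pairings within the 6 controls and other small subsets. A high-fat group of 4 or 5 animals is too small for an r of its own.

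Genes named were the 8 members, the 4 of each pathway list with the smallest diet p, and the 5 most like Foxo1, Foxo3, Fbxo32 and Trim63 by r; 1 gene that this rule names is not reported here. Others (Marco, Cxcl1, Socs3, Pdk4, Sesn1, Cited2, Stat3, Cebpb, Serpina3n, S100a8, S100a9) were chosen after their values were seen. Some genes stand in several lists, such as Klf15, Gadd45a, Sgk1, Mt2A, Mapkap1, Fbxo30 and Fbxo31. Alternatives were RLE, upper quartile and total count scaling, other count filters, DESeq2 1.42.0, the likelihood ratio test, limma voom 3.58.1, a covariate for the leading letter of animal names, a block on the numbers in the column names, other scales for r, and leaving out each animal. Promoter sequences are RefSeq's, matched by symbol for 6 of the 8 members.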

Additional observations from a re-analysis of the deposited data

Results flagged for a closer look

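Mtor in control animal 4 was flagged as a sample far from the others of its group: its level was 52.5 CPM, and the gap to the nearest control was 0.701 of the group's range, above the critical value of 0.625 for 6 samples. The other 5 controls were at 63.4 to 68.0 CPM. Of the 16 groups of values examined (8 genes in 2 diets), this was the 1 flagged, and chance flags about 1 in 20. Rps6kb1 was also lowest in that animal, at 16.3 CPM.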

How the results depend on the processing

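The count of genes that passed for maternal diet, 0, was 8 with the likelihood ratio test and 7 with DESeq2, and 0 under the other settings. For the slope on insulin it was 0 to 3 when animals were left out, with 3 without high-fat animal 3. The r of Foxo1 with Foxo3 no longer passed after subtraction of group means (0.82), without the 2 farthest animals (0.84), in controls only (0.73) or without high-fat animals 4 and 5 (0.66), and was 0.79 to 0.90 with each animal left out. Some signs turned. In controls only, r was -0.29 for Foxo1 with Fbxo32, -0.27 for Foxo1 with Trim63, 0.048 for Fbxo32 with insulin and -0.31 for Rps6kb1 with insulin. Without the 2 farthest animals it was -0.11 for Foxo1 with Trim63 and -0.090 for Foxo3 with insulin. Without high-fat animals 4 and 5 it was -0.18 for Foxo1 with Fbxo32 and -0.079 for Foxo3 with insulin. On linear CPM Foxo3 with Trim63 gave 0.093, and after centring Rps6kb1 with insulin gave -0.058. With each animal left out, r was -0.35 to 0.16 for Foxo3 with Trim63, and with insulin -0.079 to 0.50 for Foxo3, -0.51 to 0.023 for Mtor and -0.033 to 0.22 for Rps6kb1.

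The log2 fold change of Fbxo32 was 0.031 with total count scaling and 0.065 with the name letter as covariate, and that of Mtor 0.0013 with total count scaling. With each animal left out it was -0.10 to 0.12 for Fbxo32, -0.067 to 0.028 for Mtor, -0.13 to 0.017 for Akt1, -0.023 to 0.051 for Akt2 and -0.0095 to 0.17 for Rps6kb1. The insulin slope of Rps6kb1 was -0.055 with maternal diet in the fit, and with each animal left out the slopes were -0.011 to 0.12 for Rps6kb1, -0.13 to 0.63 for Foxo3 and -0.18 to 0.0049 for Mtor. The cause of these changes was not tested. Foxo1, Foxo3 and Trim63 kept a log2 fold change above 0 under all settings run. The names of the count columns share 5 numbers between the diets, which stand for animals of different litters. Same-numbered animals had deviations from their group means with r of -0.36 to 0.037, and 0 of 5 correlated best with their own number, so the numbers were not taken as a pairing. With these numbers as a replicate block, added after seeing the data, 0 genes passed and the log2 fold change of Fbxo32 was 0.034. The 8 genes had 75 counts or more in each library.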
